A study of Mus musculus with 24 samples.

Results

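The 33 genes described here code for the receptors that detect glutamate at brain synapses and for the auxiliary subunits that travel with those receptors. They were taken by gene symbol from a list of receptor families: the AMPA receptor subunits Gria1 to Gria4, the NMDA receptor subunits Grin1, Grin2a to Grin2d, Grin3a and Grin3b, the kainate receptor subunits Grik1 to Grik5, the delta receptor Grid1, the metabotropic receptors Grm2, Grm3, Grm4, Grm5, Grm7 and Grm8, the transmembrane AMPA receptor regulatory proteins (TARPs) Cacng2, Cacng3, Cacng4, Cacng5, Cacng7 and Cacng8, the cornichons Cnih2 and Cnih3, and the kainate receptor partners Neto1 and Neto2. All 33 of 33 symbols were found among the 55177 genes counted, and all 33 passed the low-count filter in every fit.

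The 24 RNA-seq libraries come from cortical neurons isolated from mouse embryos at embryonic day 16.5 and kept in culture for 7 or 18 days in vitro (DIV7, DIV18). The study asked what BAF chromatin remodelling complexes control in neurons at rest and after depolarization, and how one of their subunits, Smarcc2, and a serine in it bear on this. Every culture was first silenced overnight with 1 µM tetrodotoxin, which blocks sodium channels, and 100 µM D-AP5, which blocks NMDA receptors, so both agents are shared by all groups. Depolarization was by 50 mM KCl for 30 min. The DIV7 cultures were wild-type neurons with no guide RNA, treated with 0.1% DMSO (2 libraries at rest, 2 after KCl). At DIV18 the guide RNA was either non-targeting (NT, 2 at rest and 2 after KCl) or directed against Smarcc2 for CRISPR knockout (KO). The knockout cultures held an empty vector (3 at rest, 3 after KCl), wild-type Smarcc2 added back (WT; 2 and 3), Smarcc2 with the S586E substitution (3 at rest) or Smarcc2 with the S586A substitution (2 after KCl). Poly(A) RNA was sequenced at DIV7 (4 libraries) and ribosome-depleted total RNA at DIV18 (20 libraries), so culture age, RNA selection, guide RNA and DMSO cannot be told apart. The labels name no vector for the NT cultures, so knockout and added vector cannot be told apart in comparisons with NT. Each embryo's cortex was a biological replicate per the labels' growth protocol and the knockout cultures are primary cells, with no clone named in the labels.

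AMPA receptors carry most of the fast excitatory current at cortical synapses, and their edited GluA2 subunit, from Gria2, makes them poorly permeable to calcium. NMDA receptors need the GluN1 subunit, from Grin1, together with GluN2 or GluN3 subunits, and in the maturing cortex GluN2B (Grin2b) is joined by GluN2A (Grin2a). Kainate receptors combine GluK1 to GluK3 with GluK4 or GluK5 and are tuned by the Neto proteins, while TARPs and cornichons set the trafficking and gating of AMPA receptors. Metabotropic receptors act through G proteins: Grm5 excites neurons mainly at the postsynaptic side, and Grm2, Grm3, Grm4, Grm7 and Grm8 couple to inhibitory G proteins.

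The 2 splice choices that the transcript forms below turn on are shown here as sequence. Grin1 ends in either a C2 or a C2′ cassette, since its last exon can start at 2 acceptor sites, and the C2′ end carries a signal that speeds export of the receptor from the endoplasmic reticulum. Both coding parts are given 5′ to 3′ on the minus strand of mouse chromosome 2 (GENCODE M21, build GRCm38), C2 at chr2:25292368-25292484 (117 bases) and C2′ at chr2:25292060-25292128 (69 bases), and the capitals mark the stop codon.
Grin1 C2 coding part: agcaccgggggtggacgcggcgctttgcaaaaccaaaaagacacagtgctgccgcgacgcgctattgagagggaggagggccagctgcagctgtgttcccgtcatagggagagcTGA
Grin1 C2′ coding part: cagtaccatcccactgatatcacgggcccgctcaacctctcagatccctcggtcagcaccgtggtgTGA

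The 4 AMPA receptor genes each hold a pair of mutually exclusive exons of equal length, flip and flop, that code for part of the ligand-binding domain and set how fast the receptor desensitizes. The pair of Gria4 is shown because its flip share was lower in most DIV18 libraries than in any DIV7 library. Flip lies at chr9:4427030-4427144 and flop at chr9:4432773-4432887, both on the minus strand, and the capitals mark the 31 bases at which they differ.
Gria4 flip exon: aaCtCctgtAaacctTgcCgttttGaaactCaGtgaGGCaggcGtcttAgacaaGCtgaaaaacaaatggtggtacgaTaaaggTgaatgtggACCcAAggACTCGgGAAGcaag
Gria4 flop exon: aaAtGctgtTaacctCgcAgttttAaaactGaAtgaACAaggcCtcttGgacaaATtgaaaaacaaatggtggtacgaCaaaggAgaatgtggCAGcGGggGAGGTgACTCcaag

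Values are given on 2 scales. Levels of a gene across libraries are counts-per-million (CPM) values (estimated counts scaled to the size of the library) after TMM scaling of all 24 libraries together. Levels of different genes are compared only in transcripts-per-million (TPM) values, which also correct for transcript length, and a subunit's share is its percentage of the summed TPM of its set. Summed estimated counts per library were 24536056 to 30135576 (DIV7) and 14510199 to 24024959 (DIV18), and the lowest member, Grin3b, held 0.461 to 1.6 CPM. Neuron markers (Map2, Rbfox3, Tubb3, Snap25, Syt1, Nefl) summed to 3112 to 4201 CPM over the 24 libraries. Astrocyte markers, summed over 8 genes, were 458 to 533 CPM at DIV7 and 778 to 1837 CPM at DIV18, so the cultures also held glia. In bulk RNA, fewer cells of a type and less RNA per cell cannot be told apart. Smarcc2 was 241 and 270 CPM in NT at rest and 48.3 to 65.3 CPM in knockout cultures with vector at rest. It was 775 to 1112 CPM with WT, 1181 to 1304 CPM with S586E and 1332 to 1381 CPM with S586A.

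By length-corrected level, Cnih2 led the 33 genes at DIV7, with a mean of 403 TPM over the 4 libraries, and Grin1 was the third with 202 TPM. Over the 20 DIV18 libraries Cnih2 and Grin1 lay close together, with means of 121 and 120 TPM. Grin1 was the higher of the pair in NT at rest (150 against 124 TPM), while Cnih2 was the higher with vector at rest (120 against 104 TPM). The leading member of each family at DIV18 was Gria2 among AMPA subunits (75.3 TPM), Grin1 among NMDA subunits, Grik5 among kainate subunits (76.5 TPM), Grm5 among the metabotropic receptors (33.8 TPM), Cacng7 among TARPs (58.7 TPM) and Neto2 over Neto1 (17.2 against 5.3 TPM). Grm2 was close behind Grm5, with 32.6 TPM, and the order depended on the group. Grm2 had the higher mean with vector at rest (39.1 against 36.2 TPM), with S586E (39.3 against 37.8) and with S586A (27.9 against 26.9). Grm5 had the higher mean in the other DIV18 groups. The delta receptor Grid1 had 7.36 TPM. Grin2c (0.409 TPM) and Grin3b (0.265 TPM) were the lowest at DIV18. Cacng4 stood out for its place in the order, the fifth at DIV7 with 111 TPM and rank 24 at DIV18 with 5.65 TPM.

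Between the culture days, most of the 33 genes differed, and they differed in both directions within every family of more than 2 genes. In the comparison of NT at DIV18 with DIV7 at rest, 17 members were higher and 11 lower at DIV18, and the largest difference of the 33 was the 7.3-fold lower level of Cacng4. As shares of their families, Grin2a, Cacng7 and Grm2 were higher and Cacng4, Grm3 and Grm8 lower in every DIV18 library than in any DIV7 library. This is a large count on a large background: 28 of 33 members (84.8%) passed edgeR's quasi-likelihood test at an adjusted p under 0.05, against 60.6% of all 21072 genes tested, with 30.0% of all genes higher and 30.6% lower. After KCl the counts were 19 higher and 11 lower, against a background of 61.2% (31.1% higher and 30.2% lower). The median log2 difference over the members was 0.36 at rest, against -0.03 over all genes. These directions are relative to the TMM scaling, which sets the middle of all genes near 0. In the deposited TPM the median gene was lower in NT than at DIV7 by a log2 difference of -1.33 at rest and -1.31 after KCl, and the members' median was -0.97 and -0.88. On that scale 6 of the 33 members were higher and 27 lower at rest, and 4 and 29 after KCl. Of the 17 called higher at rest, 11 had a lower mean TPM at DIV18 (Gria4, Grin1, Grin2b, Grik5, Grid1, Grm4, Cacng2, Cacng3, Cacng7, Cacng8 and Neto1), as had 15 of the 19 after KCl, while every member called lower was lower on both scales. Offsets for effective length, with TMM kept, turned the direction of no called member. In the same comparison, summed oligodendrocyte lineage markers were 60.1 to 69.7 CPM at DIV7 and 135 to 220 CPM in NT, with 6 of 9 called higher and 1 lower at rest. Of 8 astrocyte markers 5 were called higher and 1 lower, and 2 of those called higher (Aldh1l1 and Gja1) were lower in mean TPM. Of 6 excitatory neuron markers 1, Slc17a7, was called higher and 4 lower. The part of these markers in the receptor differences was not tested.

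**Figure D1:**
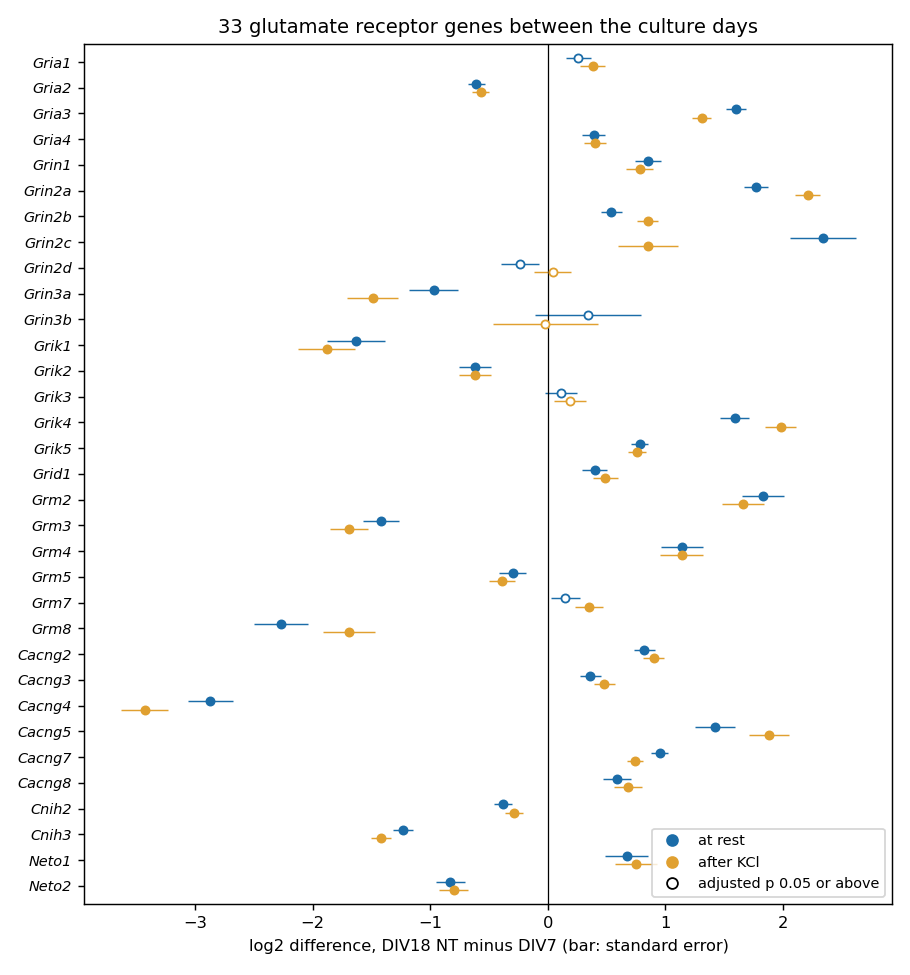
Log2 difference of each of the 33 genes between NT cultures at DIV18 and wild-type cultures at DIV7, at rest (blue) and after KCl (orange). Points are edgeR estimates from 2 libraries a group, bars are standard errors, and open points have an adjusted p of 0.05 or above. Cacng4 lies farthest to the left in both states (-2.87 at rest and -3.43 after KCl) and Grin2a lies at 1.77 and 2.21.

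Among AMPA receptor subunits the balance moved away from Gria2. Gria2 measured 541 and 551 CPM in DIV7 cultures at rest and 372 and 334 CPM in NT at rest, a log2 difference of -0.61 (SE 0.0718, adjusted p = 6.86e-05, edgeR). The groups did not overlap. Gria3 went from 28.2 and 26.5 CPM to 77.6 and 85.6 CPM, a log2 difference of 1.6 (SE 0.082, adjusted p = 3.23e-07). Gria4 was higher by less on the TMM scale, from 45.4 and 51 CPM to 66.1 and 58 CPM (log2 0.39, adjusted p = 0.00611), and did not pass without the first DIV7 library or the first NT library at rest (adjusted p = 0.0598 and 0.0512). Gria1, at 222 and 221 CPM against 292 and 231 CPM, did not pass at rest (log2 0.26, adjusted p = 0.0543) and passed after KCl (log2 0.38, adjusted p = 0.0108), though not without the first DIV7 library or the second NT library after KCl (adjusted p = 0.105 and 0.0512). In mean TPM Gria4 was lower in NT (15.4 against 30.2 at rest), and so was Gria1 in both states (43.3 against 84.2 at rest). As shares of the summed TPM of the 4 subunits, Gria2 held 65.1 to 66.9% in the 4 DIV7 libraries and 44.1 to 58.7% in the 20 DIV18 libraries. The difference in that share between NT and DIV7 at rest was -19.56 percentage points, and -9.84 with protein-coding transcripts only. Gria3 held 2.92 to 3.44% and 7.61 to 12.8%. Part of these differences lies in transcripts that are not annotated as protein-coding: counting protein-coding transcripts only, Gria2 was -0.32 on the log2 scale (adjusted p = 0.025) and Gria3 was 0.61, which no longer passed (adjusted p = 0.058).

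The auxiliary subunits of AMPA receptors went both ways between the days. Cacng4, the gene for TARP γ-4 (chr11:107732357-107794557), measured 167 and 186 CPM in DIV7 cultures at rest and 19.8 and 27.9 CPM in NT at rest, a log2 difference of -2.87 (SE 0.19, adjusted p = 1.56e-06). No DIV18 library of any construct exceeded 27.9 CPM. The other 5 TARP genes were called higher at DIV18 on the TMM scale, while in mean TPM only Cacng5 was higher at rest (8.5 against 7.56) and Cacng2 (15.3 against 20.6), Cacng3 (15.2 against 29.9), Cacng7 (66.8 against 86.0) and Cacng8 (27.3 against 45.3) were lower. Cacng5, for the unusual TARP γ-5, went from 14.5 and 12.2 CPM to 40.6 and 29.8 CPM (log2 1.42), and Cacng7, for TARP γ-7, from 82.9 and 83.3 CPM to 152 and 165 CPM (log2 0.95). Cacng2, which encodes stargazin, was 0.82 higher, Cacng8, for TARP γ-8, 0.59 and Cacng3 0.36 on the same scale. Without the first DIV7 library at rest Cacng3 did not pass (adjusted p = 0.0772). Accordingly the Cacng4 share of TARP TPM was 35 to 38.2% at DIV7 and 2.75 to 6.51% at DIV18, while Cacng7 held 28 to 31% and 41.7 to 49.8%. Both cornichons, which bind AMPA receptors and slow their closing, were lower at DIV18. Cnih3 fell from 94.7 and 83.5 CPM to 35.6 and 39.3 CPM (log2 -1.23, adjusted p = 2.31e-06) and Cnih2 from 234 and 216 CPM to 176 and 165 CPM (log2 -0.38, adjusted p = 0.00222).

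Within the NMDA receptor family, Grin2a, Grin2b, Grin1 and Grin2c were called higher and Grin3a lower on the TMM scale, while in mean TPM Grin1 (150 against 200 at rest) and Grin2b (74.6 against 90.1) were lower in NT and Grin2c was lower after KCl. Grin2a (chr16:9567898-9995560) went from 103 and 96.5 CPM in DIV7 cultures at rest to 344 and 325 CPM in NT at rest, a 3.4-fold difference (log2 1.77, SE 0.104, adjusted p = 7.24e-07). Grin2b went from 875 and 881 CPM to 1308 and 1207 CPM (log2 0.54, adjusted p = 0.00054). With offsets for effective length, the Grin2b difference was 1.05. The Grin2a share of the pair was 16 and 14.5% at DIV7 at rest and 26.5 and 25.8% in NT at rest, and over all libraries it spanned 12.4 to 16% at DIV7 and 25.1 to 30% at DIV18. The obligatory subunit Grin1 went from 431 and 344 CPM to 706 and 671 CPM (log2 0.85, adjusted p = 0.000134). Grin2c, typical of cerebellum and of some glia, rose from 0.938 and 0.71 CPM to 3.8 and 4.49 CPM (log2 2.34, adjusted p = 7.29e-05) at low levels. Grin3a, whose GluN3A subunit lowers calcium entry and marks immature synapses, fell from 18.7 and 26.5 CPM to 11.9 and 10.7 CPM (log2 -0.97, adjusted p = 0.00299). Grin2d and Grin3b did not pass in either state.

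**Figure D2:**
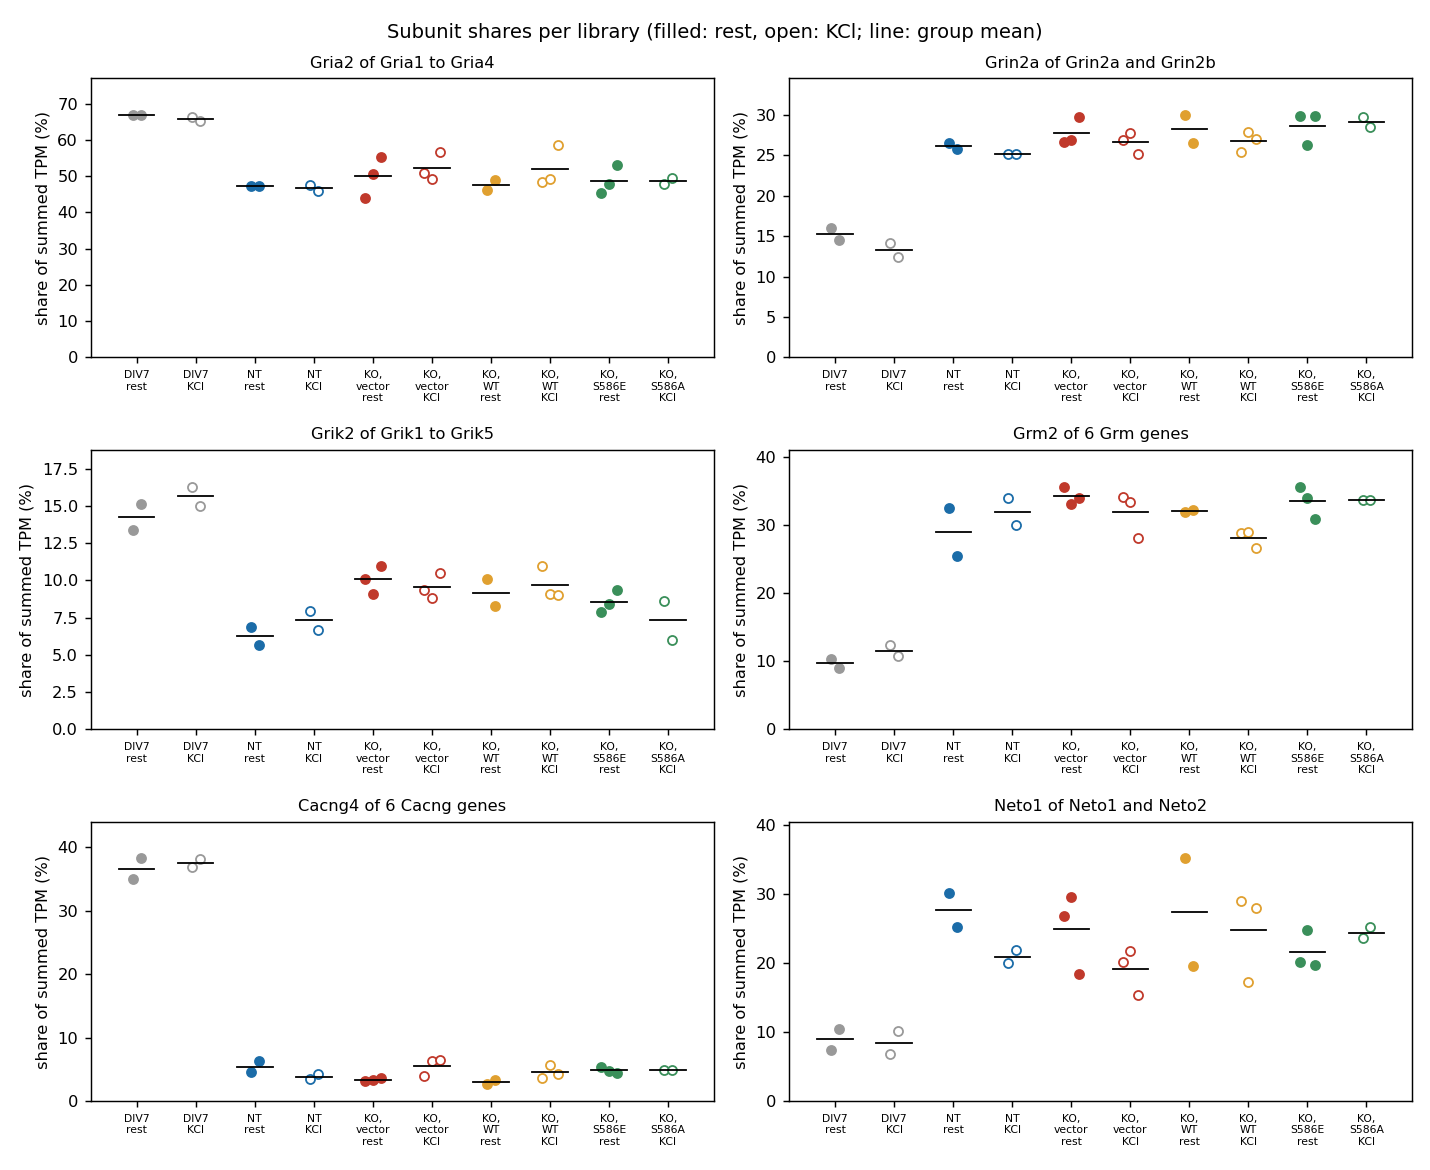
Share of 1 subunit in the summed TPM of its set for each of the 24 libraries (percent), by group, with filled points at rest, open points after KCl and a line at the group mean. The Cacng4 share lies at 35% or above in every DIV7 library and at 6.51% or below in every DIV18 library, and the Grin2a share does not overlap between the days.

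Kainate receptor genes went both ways on the TMM scale. The primary subunits Grik1 and Grik2, which can form channels alone, fell at rest by 1.63 and 0.62 on the log2 scale, Grik1 from 10.2 and 14.5 CPM to 4.19 and 3.65 CPM (adjusted p = 0.000363). The high-affinity partner subunits Grik4 and Grik5 were higher on the TMM scale, though Grik5 was lower in mean TPM (86.1 against 125), Grik4 from 20.4 and 15.1 CPM to 53 and 52.3 CPM (log2 1.59, adjusted p = 4.55e-06) and Grik5 from 204 and 205 CPM to 359 and 333 CPM (log2 0.78). Grik3, the third primary subunit, did not pass in either state. The Grik2 share of kainate TPM was 13.4 to 16.3% at DIV7 and 5.63 to 11% at DIV18. Of the 2 Neto genes, whose proteins slow kainate receptor desensitization, Neto2 fell from 130 and 125 CPM to 81.5 and 59.4 CPM (log2 -0.83, adjusted p = 0.00033) and Neto1 was higher on the TMM scale, from 21.1 and 30.1 CPM to 42.8 and 37.2 CPM (log2 0.67, adjusted p = 0.00992). Without the first DIV7 library at rest or the first NT library at rest, Neto1 did not pass (adjusted p = 0.0807 and 0.0692). Grid1, whose product binds cerebellins and organizes synapses, was 31.6 and 37.2 CPM against 47.4 and 41.6 CPM (log2 0.4, adjusted p = 0.00952), and it did not pass without either of the same 2 libraries (adjusted p = 0.0941 and 0.0769) or with protein-coding transcripts only (0.0565). In mean TPM Neto1 (5.8 against 6.21) and Grid1 (7.88 against 12.9) were lower in NT at rest.

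The metabotropic receptors shifted most in Grm2, Grm8 and Grm3. Grm2, a presynaptic brake on glutamate release, went from 31.7 and 31.5 CPM in DIV7 cultures at rest to 136 and 85.3 CPM in NT at rest (log2 1.83, SE 0.179, adjusted p = 1.91e-05). The NT libraries lay far apart but above all DIV7 libraries. Grm4 went from 17.1 and 24.6 CPM to 46 and 44.2 CPM (log2 1.14, adjusted p = 0.000458), but its mean TPM was lower in NT (9.58 against 11.5). Grm8 fell from 17.1 and 15.2 CPM to 4.24 and 2.29 CPM (log2 -2.27, adjusted p = 2.24e-05), and Grm3, which astrocytes also express, from 19.9 and 24.9 CPM to 8.82 and 7.71 CPM (log2 -1.42, adjusted p = 4.04e-05). The lower Grm3 stood beside summed astrocyte markers that were higher at DIV18. Grm5 was lower at DIV18 (220 and 248 against 206 and 168 CPM, log2 -0.3, adjusted p = 0.042). This call was lost with effective-length offsets (log2 -0.04, adjusted p = 0.802), with a fit of only the groups compared (0.0566), with a replicate block (0.0615) and without the second library of either group (adjusted p = 0.213 without that of DIV7 and 0.252 without that of NT). As shares of the 6 receptors, Grm2 held 9.01 to 12.3% at DIV7 and 25.4 to 35.6% at DIV18, and Grm5 held 43.8 to 48.6% and 28.6 to 36.7%.

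Transcript forms also differed between the days, and are given as a description without a test. Grin1 has 8 coding forms that combine presence or absence of the N1 exon, the C1 exon and the C2 part of the last exon. Forms with C2 made up 83.5 to 86.4% of their summed TPM in the 4 DIV7 libraries and 54.5 to 69% in the 20 DIV18 libraries. Forms with C1, the exon that carries an endoplasmic reticulum retention signal, made up 82.3 to 83.8% and 65 to 78.2%. Forms with N1 held 5.97 to 11.9% and 9.76 to 19.2%. The C2′ end thus had a higher share in every DIV18 library than in any DIV7 library. Gria4 flip forms held 46.5 to 75.8% at DIV7 and 22 to 53.9% at DIV18, where the ranges overlap. This share leaves out the form Gria4-203, which held most of the gene's RNA. Its mean was 19.9 TPM of 30.2 for the gene at DIV7 at rest, and 9.05 of 15.4 in NT at rest. Gria1 flip forms held 75.3 to 84.5% at DIV7 and 68.7 to 87.6% at DIV18. The flip and flop forms of Gria2 and Gria3 also differ in the length of their ends, which limits their estimates.

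Genes of the same pathway that are not members were counted from 3 lists. Of 13 AMPA receptor partners outside the members, 9 were higher and 1 lower in NT at DIV18 than in DIV7 cultures at rest, among them Gsg1l, an AMPA receptor subunit that slows recovery (log2 3.1), and Nptx1, a neuronal pentraxin that clusters AMPA receptors (2.64). Of 15 scaffolds and trafficking genes, 10 were higher and 5 lower, with Dlg1, the scaffold SAP97, at 2.1, Dlg4, the scaffold PSD-95, at 0.66 and Grip1 at -0.85. Of 9 genes that load, clear or make glutamate, 4 were higher and 2 lower. The vesicular transporters went opposite ways, Slc17a7 by 3.77 and Slc17a6 by -1.46, and the glial transporter Slc1a2 rose by 2.24. The median log2 differences of the 3 lists were 0.69, 0.59 and 0.29, against -0.03 over all genes. Of all genes, 60.6% were called in this comparison, 30.0% higher and 30.6% lower. These counts too are relative to the TMM scaling: in mean TPM 6 of the 10 called AMPA receptor partners, 8 of the 15 scaffolds and 2 of the 6 glutamate handling genes, all called higher, were lower in NT. Of the genes named here this turned Dlg4 alone (234 against 400 TPM).

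At DIV7, 30 min of KCl moved few of these genes. Grm2, Neto2 and Grin2c were higher after KCl, and Grin2a, Grin2b and Grik4 were lower. This was 6 of 33 members (18.2%), with 17.0% of all 19822 genes tested called in the same comparison (7.34% higher and 9.67% lower), so the share was near the background. All 10 early-response genes examined were higher, with Fos, the classic immediate early gene, at a log2 difference of 7.23.

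Grm2 was the member that held under every alternative. It measured 31.7 and 31.5 CPM at rest and 42.7 and 43.2 CPM after KCl (log2 0.42, SE 0.059, adjusted p = 0.00496), and over 10 alternatives the adjusted p ran from 7.97e-06 to 0.0351. The KCl libraries both lay above the resting ones. Grin2a went from 103 and 96.5 CPM to 85.6 and 81 CPM (log2 -0.28, SE 0.0551, adjusted p = 0.0152), and Grin2b from 875 and 881 CPM to 797 and 814 CPM (log2 -0.15, SE 0.0337, adjusted p = 0.0279). In CPM both NMDA receptor subunits were thus lower in each KCl library than in each resting one. In TPM this held for Grin2a, while Grin2b overlapped (87.1 and 93.2 at rest against 78.8 and 87.6 after KCl). Grik4 went from 20.4 and 15.1 CPM to 12.3 and 12.3 CPM (log2 -0.56, adjusted p = 0.0369). Neto2 went from 130 and 125 CPM to 150 and 143 CPM (log2 0.18, adjusted p = 0.0448). Grin2c went from 0.938 and 0.71 CPM to 2.46 and 1.74 CPM (log2 1.32, adjusted p = 0.023). With 2 libraries a group, these calls rest on single libraries: 1 member was called without the first resting library and 3 when any of the other 3 libraries was left out. With effective-length offsets Grin2b was -0.07 (adjusted p = 0.508), and without the first resting library Grik4 was -0.33 (adjusted p = 0.16). With a replicate block, 13 were called. The share of all genes called with the block or without single libraries is not given here. Same-numbered libraries deviated together across genes (correlation 0.321), but the labels do not tie the numbers to shared embryos.

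The subunit shares moved little with KCl at DIV7. The Grin2a share of Grin2a and Grin2b was 16 and 14.5% at rest and 14.1 and 12.4% after KCl, and the Gria2 share of AMPA subunits was 66.9 and 66.8% against 66.2 and 65.1%. Neither pair of groups overlapped, but an exact permutation test of 2 libraries against 2 cannot give a p below 0.333. Among 13 AMPA receptor partners, Porcn was -0.47 and Cpt1c -0.23 on the log2 scale. Among 15 scaffolds, Homer1 (1.72), Dlg1 (0.45) and Dlg2 (0.16) were higher. Of the glutamate handling genes only Slc1a3 passed, at -0.22.

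At DIV18, no member was called between KCl and rest in any of the 3 constructs. In NT cultures 0 of 33 passed (0.00955% of 20940 genes), in knockout cultures with vector 0 of 33 (0.0716%, of which 0.0621% higher) and in those with WT 0 of 33 (0.043%, with 0.0382% higher and 0.00478% lower). By edgeR at an unadjusted p under 0.05 the members numbered 2, 6 and 1 in the same order, beside 906, 2167 and 1040 of the 20940 genes. DESeq2 called 0 members in each. Of the 10 early-response genes, 1 was called in NT, 8 with vector and 6 with WT, and Fos was 3.36, 3.8 and 4.52 higher on the log2 scale (adjusted p = 0.0912 in NT, which did not pass, 0.00329 and 0.00567). The 6 members called at DIV7 did not pass at DIV18. Grm2 was 136 and 85.3 CPM in NT at rest and 134 and 129 CPM after KCl. The difference in the KCl response between NT at DIV18 and DIV7 was tested itself: 0 of 33 members passed (2.34% of 21072 genes). In edgeR 4 members had an unadjusted p under 0.05, beside 3306 of the 21072 genes. The lowest adjusted p was 0.0859 for Grin2c, and DESeq2 called 0 members.

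Smarcc2 knockout cultures with vector held less Grin1 RNA than NT cultures in both states, and more RNA of 5 other members at rest. The labels give a vector to the knockout cultures only, so these differences cannot be assigned to the knockout alone. In resting knockout cultures with vector against resting NT, Grin1 and Grin2c were lower, and Gria4, Grik2, Grm2, Grm7 and Neto2 were higher. After KCl Grin1 was again called lower, together with Cacng5. The resting count was 7 of 33 (21.2%), with 5.9% of all 20940 genes tested called in that comparison, 2.13% higher and 3.77% lower. The KCl count was 2 of 33 (6.06%), against 2.67% of all genes (0.726% higher and 1.95% lower). The median log2 difference of the members was 0.05 at rest and -0.05 after KCl, beside 0.02 over all genes in each state.

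**Figure D3:**
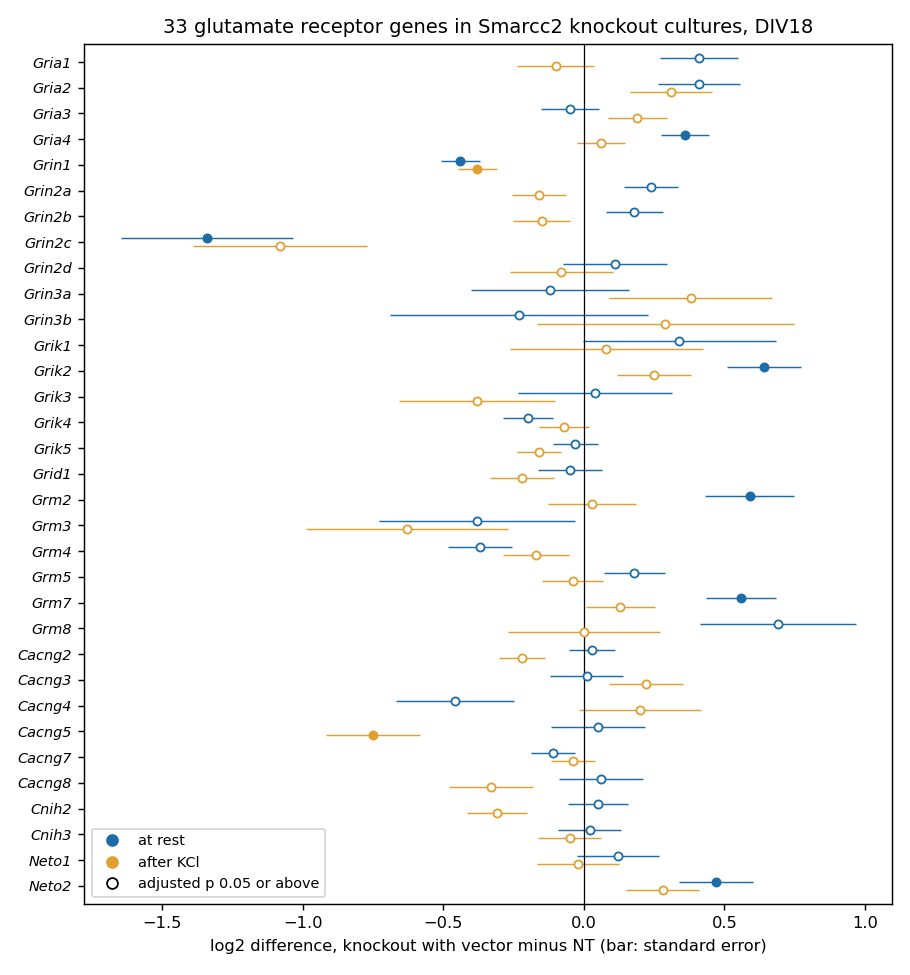
Log2 difference of each of the 33 genes between Smarcc2 knockout cultures with vector (3 libraries) and NT cultures (2 libraries) at DIV18, at rest (blue) and after KCl (orange). Points are edgeR estimates, bars are standard errors, and open points have an adjusted p of 0.05 or above. Grin1 is filled in both states, at -0.44 and -0.38.

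Grin1 (chr2:25291181-25319187, minus strand), without which no NMDA receptor forms, measured 706 and 671 CPM in NT at rest and 508, 533 and 493 CPM in knockout cultures with vector at rest. After KCl it measured 707 and 670 CPM against 507, 537 and 552 CPM. The 4 NT libraries all lay above the 6 vector libraries. The log2 difference was -0.44 at rest (SE 0.0694, adjusted p = 0.00164) and -0.38 after KCl (SE 0.0695, adjusted p = 0.00874), a 1.35-fold and a 1.3-fold lower level. At rest the call held under every alternative but a fit of only the groups compared (adjusted p = 0.0657). After KCl it was lost without the first or without the second NT library (adjusted p = 0.0645 and 0.0657). Among the other NMDA receptor subunits, Grin2a was 0.24 and Grin2b 0.18 at rest and -0.16 and -0.15 after KCl, and neither passed in either state.

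Split by its C-terminal forms, Grin1 differed more in the forms with C2 than in those with C2′. Forms with C2 measured 473 and 445 CPM in NT at rest and 296, 332 and 288 CPM with vector at rest, and after KCl 486 and 451 CPM against 296, 308 and 310 CPM. Forms with C2′ measured 228 and 222 CPM in NT at rest and 208, 194 and 198 CPM with vector at rest, and after KCl 217 and 216 CPM against 206, 226 and 236 CPM. The C2 forms did not overlap between NT and vector cultures in either state. The C2′ forms were lower with vector at rest, also without overlap, and overlapped after KCl. As a share of the 8 coding forms, C2 held 65.3 and 64.6% in NT at rest and 56.4, 60.8 and 57.1% with vector at rest. After KCl it held 67 and 65.5% against 56.7, 55.4 and 54.5%. These shares come from the authors' transcript estimates and were not tested.

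With Smarcc2 added back, Grin1 lay between the vector and the NT libraries of the same state in CPM after TMM scaling, but not in TPM. It measured 588 CPM ± 2.74 (SD, n = 2) with WT at rest, 601, 580 and 605 CPM with WT after KCl, 537, 575 and 598 CPM with S586E at rest and 571 and 603 CPM with S586A after KCl. All 5 WT libraries were above all 6 vector libraries and below all 4 NT libraries on that scale. In TPM, Grin1 was 155 and 145 in NT at rest, 106, 109 and 98.2 with vector, 89.3 and 117 with WT and 98.4, 109 and 132 with S586E, so both added-back groups overlapped the vector libraries. After KCl it was 158 and 134 TPM in NT, 115, 114 and 122 with vector, 134, 118 and 128 with WT, and 103 and 105 with S586A, below every vector library. NT stayed above vector without overlap in TPM in both states. WT against vector was 0.2 at rest on the log2 scale (SE 0.0697, adjusted p = 0.285 in edgeR) and 0.17 after KCl (SE 0.0626, adjusted p = 0.999), and neither passed. The difference between added-back cultures and NT was not tested here. The C2 share was 62.4 and 67.4% with WT at rest, 61.6, 64.1 and 65.5% with WT after KCl, 65.8, 64.2 and 63.4% with S586E and 61.3 and 69% with S586A. Each of these 10 libraries lay above the 6 vector libraries, whose highest share was 60.8%. In TPM the C2 forms are given singly, without their sum. Grin1-201, the largest form with C2, was 34.9 to 50.1 TPM with vector at rest, 35.9 to 54.5 with WT and 43.9 to 58.8 with S586E. After KCl it was 45.8 to 47.9 TPM with vector, 51.6 to 62.1 with WT and 40.3 to 45.4 with S586A. The other forms with C2, Grin1-202, Grin1-203 and Grin1-204, had higher mean TPM in each added-back group than with vector in the same state. After KCl these means were 10.6, 1.04 and 5.67 TPM with vector and 11.7, 2.43 and 9.8 TPM with S586A.

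**Figure D4:**
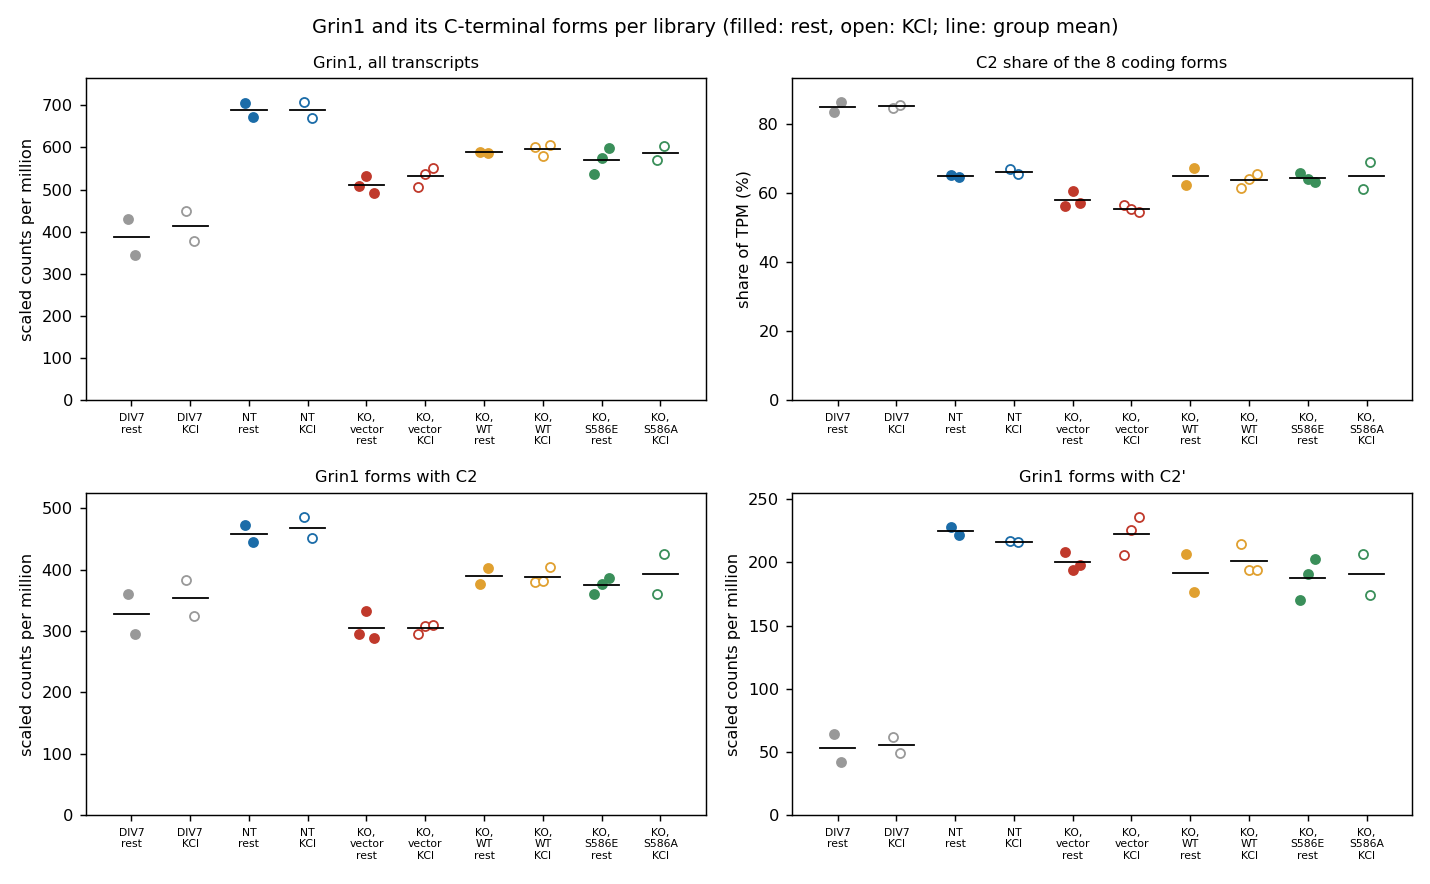
Grin1 in each of the 24 libraries by group: all transcripts (CPM), the share of the C2 end in the 8 coding forms (percent of TPM), and the level of forms with C2 and with C2′ (CPM). Filled points are at rest, open points after KCl, and lines are group means. On this scale, after TMM scaling, the vector libraries have 288 to 332 CPM of C2 forms, below every NT, WT, S586E and S586A library. Their C2′ forms (194 to 236 CPM) overlap those of most other DIV18 groups. TPM is not drawn for the C2 forms. On that scale Grin1-201 did not lie above vector in every added-back group, while the means of the other forms with C2 did.

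The 5 members that were higher in knockout cultures at rest depended on a single NT library. Grik2, for the kainate subunit GluK2, measured 33.9 and 24.9 CPM in NT and 48.6, 45.3 and 44.8 CPM with vector (log2 0.64, SE 0.132, adjusted p = 0.00817). Grm7, a presynaptic receptor of low glutamate affinity, measured 90.3 and 75.5 CPM and 119, 120 and 128 CPM (log2 0.56, adjusted p = 0.0138). Grm2 measured 136 and 85.3 CPM and 189, 158 and 153 CPM (log2 0.59, adjusted p = 0.0364). In each case the second NT library was the lower of the 2. Gria4 measured 66.1 and 58 CPM and 88.8, 73.6 and 76.8 CPM (log2 0.36, adjusted p = 0.0202), and Neto2 81.5 and 59.4 CPM and 102, 87 and 107 CPM (log2 0.47, adjusted p = 0.0393). No NT library overlapped the vector libraries in these 5 genes, which are among 14 of the 33 members without overlap at rest. The share of all genes without overlap is not given here. Without the second NT library at rest, 1 of the 7 calls remained, Grin1. The log2 differences without it were 0.44 for Grik2, 0.43 for Grm7, 0.29 for Grm2, 0.26 for Gria4 and 0.26 for Neto2, with adjusted p from 0.261 to 0.565. Without the first vector library at rest 4 members were called. A fit of only the groups compared called 1 of the 33, and effective-length offsets left 3.

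Grin2c measured 3.8 and 4.49 CPM in NT at rest and 2.1, 1.13 and 1.69 CPM with vector (log2 -1.34, SE 0.306, adjusted p = 0.0149). After KCl the values were 3.82 and 3.54 CPM against 1.64, 1.82 and 1.8 CPM (log2 -1.08, adjusted p = 0.0688), which did not pass although the groups did not overlap. The resting call was lost without the second NT library (adjusted p = 0.216), without the second vector library (0.0543) and with only the groups compared (0.0999). Cacng5 measured 44.1 and 55.6 CPM in NT after KCl and 32.6, 31.3 and 25 CPM with vector (log2 -0.75, SE 0.166, adjusted p = 0.0216). At rest the same gene overlapped, with 40.6 and 29.8 CPM in NT and 44.5, 33.3 and 31.6 CPM with vector (log2 0.05). The call after KCl was lost without the second NT library (log2 -0.58, adjusted p = 0.349) and without the second or the third vector library (0.0555 and 0.0925).

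**Figure D5:**
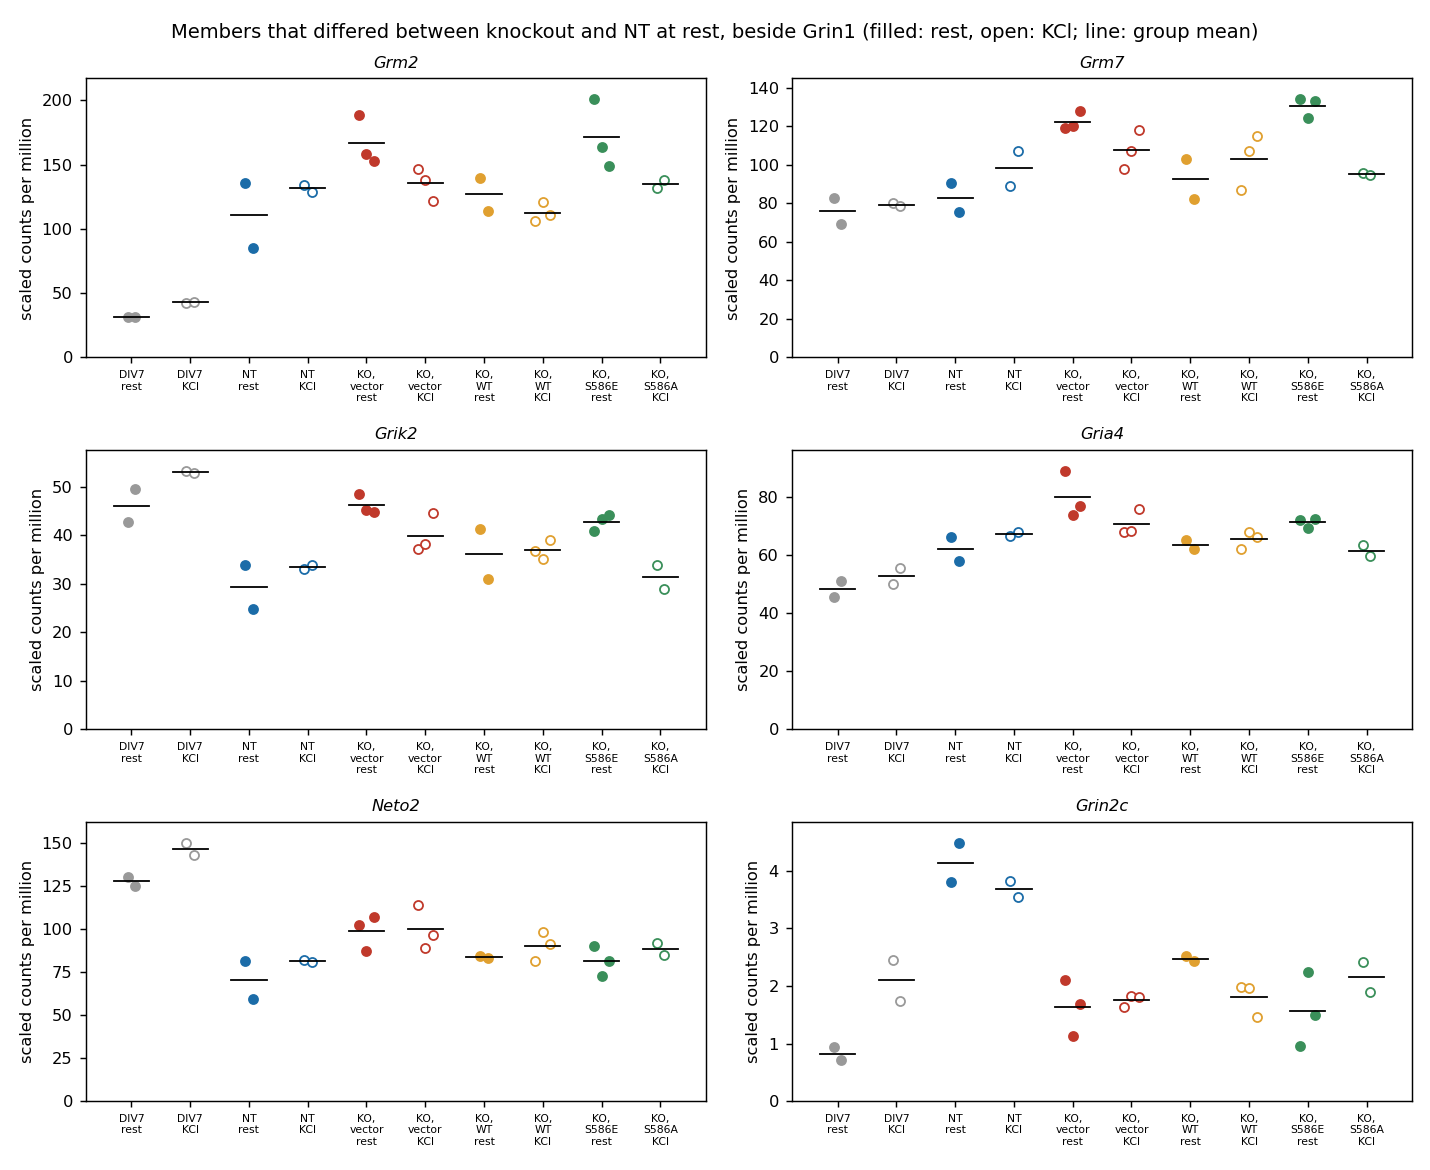
Level (CPM) of the 6 members other than Grin1 that were called between knockout with vector and NT at rest, in each of the 24 libraries by group. Filled points are at rest, open points after KCl, and lines are group means. For Grm2 the 2 resting NT libraries lie at 136 and 85.3 CPM, and the 3 resting vector libraries lie above both.

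None of the 5 higher members was called after KCl. Grik2, at 33 and 33.9 CPM in NT and 37.1, 38.2 and 44.6 CPM with vector, and Neto2, at 82.1 and 80.9 CPM and 114, 88.7 and 96.6 CPM, still did not overlap (log2 0.25 and 0.28). Of the 33 members, 16 did not overlap after KCl, and the share over all genes is not given here. Grm2 (134 and 129 against 147, 138 and 122 CPM), Grm7 (89.1 and 107 against 97.5, 107 and 118 CPM) and Gria4 (66.4 and 67.8 against 67.8, 68 and 75.8 CPM) came close to each other or overlapped. The change in the KCl response itself, vector minus NT, passed for 0 of 33 members (0.0% of 20940 genes). In edgeR 11 members had an unadjusted p under 0.05, beside 1845 of the 20940 genes, and DESeq2 called 0 members. The lowest adjusted p was 0.472.

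Subunit shares between knockout and NT could not reach a threshold, since 2 libraries against 3 give an exact two-sided permutation p of 0.2 at the least. The Grik2 share of kainate TPM did not overlap, at 6.88 and 5.63% in NT at rest and 10.1, 9.12 and 11% with vector at rest, and 7.97 and 6.68% against 9.38, 8.82 and 10.5% after KCl. The Gria2 share overlapped at rest (47.3 and 47.3% against 44.1, 50.7 and 55.2%) but not after KCl (47.6 and 45.8% against 50.9, 49.1 and 56.6%). The Grin2a share did not overlap at rest (26.5 and 25.8% against 26.7, 26.9 and 29.7%). Over all 98 share comparisons, the lowest adjusted p by the exact permutation test was 0.726. Gria4 flip forms held 26.4 and 26.4% in NT at rest and 36.4, 53.9 and 48.3% with vector at rest. After KCl they overlapped, at 25.8 and 42.5% against 29, 25.8 and 50.1%.

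Markers of glia also differed between knockout cultures with vector and NT cultures. Summed astrocyte markers were 1435 to 1669 CPM in NT at rest and 926 to 1305 CPM with vector, and 1332 to 1837 CPM against 778 to 901 CPM after KCl, with 1 of 8 called lower at rest and 3 after KCl. Summed oligodendrocyte lineage markers were 205 to 217 CPM in NT at rest and 138 to 156 CPM with vector, and 135 to 220 CPM against 118 to 137 CPM after KCl, with 5 of 9 called lower at rest and 3 after KCl. Of that lineage, Sox10 was at 0 in all 3 resting vector libraries. Microglia markers were near their floor, at 7.06 to 8.13 CPM and 3.89 to 3.92 CPM at rest. Progenitor markers were 62.3 to 78.4 CPM and 19.3 to 51.2 CPM at rest, with 1 of 5 (Mki67) called lower. Neuron markers were 3445 to 3566 CPM and 3206 to 3769 CPM at rest, and 3512 to 3907 CPM and 3112 to 3149 CPM after KCl, where 2 of 6 (Snap25 and Nefl) were called lower. Inhibitory neuron markers were 212 to 283 CPM and 144 to 399 CPM at rest, and 328 to 339 CPM and 182 to 238 CPM after KCl, with none of 6 called by edgeR. Excitatory neuron markers were 2126 to 2169 CPM and 2097 to 2334 CPM at rest, where Slc17a6 and Tbr1 were called higher, and 2123 to 2245 CPM and 1900 to 2085 CPM after KCl. The part of these differences in the receptor results was not tested.

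Among the other genes of the pathway, 2 synaptic scaffolds were called lower in both states. Shank3, a core postsynaptic scaffold, was -0.65 at rest and -0.5 after KCl on the log2 scale, and Homer2 was -0.41 and -0.43. At rest these were the 2 called of the 15 scaffold and trafficking genes. Of 13 AMPA receptor partners, Shisa8 was -1.48 at rest and -1.94 after KCl, Shisa9 was 0.38 at rest, and Shisa6 (-0.61) and Abhd6 (-0.38) were lower after KCl. Of 9 glutamate handling genes, Slc1a2 was -0.5 and -0.77, Glud1 was -0.6 at rest and Slc17a6 was 0.84 at rest. Over all genes, 5.9% were called at rest and 2.67% after KCl.

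Adding back Smarcc2 gave no called member in edgeR's test of either state. WT against vector passed for 0 of 33 at rest (0.0143% of 20940 genes, 0.00478% higher and 0.00955% lower) and 0 of 33 after KCl (0.00955%, 0.00478% in each direction). In edgeR 10 and 2 members had an unadjusted p under 0.05, beside 2317 and 837 of the 20940 genes. DESeq2 called 3 at rest (Gria4, Grin2a and Grin2b, all lower with WT) and 0 after KCl, and edgeR with a replicate block called Grin2b at rest. The shares of all genes called in these 2 ways are not given here. At rest Grin2b measured 1008 and 1123 CPM with WT and 1560, 1476 and 1247 CPM with vector (log2 -0.42, adjusted p = 0.151 in edgeR). The groups did not overlap, as in 13 of the 33 members, and the share over all genes is not given here. Grin2a measured 304 and 310 CPM against 427, 387 and 378 CPM (log2 -0.37, adjusted p = 0.162). For comparison, NT at rest held 1308 and 1207 CPM of Grin2b and 344 and 325 CPM of Grin2a. The difference in the response to KCl between WT and vector passed for 0 of 33 members (0.0% of genes called). In edgeR 1 member had an unadjusted p under 0.05, beside 768 of the 20940 genes, and DESeq2 called 0 members.

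The substituted forms of Smarcc2 were compared in the state each was profiled in. S586E against WT at rest passed for 0 of 33 members in edgeR (0.0% of 20940 genes). An unadjusted p under 0.05 in edgeR was reached by 11 members and by 2696 of the 20940 genes. DESeq2 called 5 members, all higher with S586E: Grin2a, Grin2b, Grik5, Grm7 and Cacng8. The share of all genes that DESeq2 called is not given here, so these 5 cannot be set against a background. Grin2a measured 463, 417 and 382 CPM with S586E and 304 and 310 CPM with WT (log2 0.46, SE 0.0966, adjusted p = 0.114 in edgeR). Cacng8 measured 66.6, 61.1 and 61.4 CPM against 44.7 and 40.9 CPM (log2 0.56, SE 0.151, adjusted p = 0.141), and Grm7 134, 124 and 133 CPM against 103 and 82.4 CPM (log2 0.49, adjusted p = 0.134). The groups did not overlap in these 3 genes, which are among 16 of the 33 members without overlap in this comparison. The share of all genes without overlap is not given here. For the same genes, Grin2a with vector was 427, 387 and 378 CPM and Cacng8 61.8, 57.7 and 42.4 CPM. S586E against vector passed for 0 of 33 (0.0191% of genes, 0.0143% higher and 0.00478% lower). In edgeR 5 members had an unadjusted p under 0.05, beside 1560 of the 20940 genes, and DESeq2 called 0 members. The contrast shares its S586E libraries with the one against WT.

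S586A was profiled after KCl. Against WT it passed for 0 of 33 members (0.0% of genes), and against vector for 0 of 33 (0.00955%, 0.00478% in each direction). In edgeR 1 and 6 members had an unadjusted p under 0.05 in the same order, beside 1823 and 2730 of the 20940 genes. DESeq2 called 0 members in each. Cnih2 was the member with the lowest p in both: 173 and 206 CPM with S586A, 152, 182 and 149 CPM with WT and 151, 162 and 150 CPM with vector (log2 0.23 and 0.3, adjusted p = 0.569 and 0.255). In TPM the 3 groups overlapped, with means of 112 with S586A, 114 with WT and 113 with vector. S586E and S586A were never profiled in the same state, so they were not compared with each other.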

How the data were processed

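Kallisto tables of 24 libraries were used. Per the submitters' processing notes, reads passed through FastQC, cutadapt and kallisto. The order, versions, genome build and annotation are not given in the sources used here. The deposited estimated counts (not whole) and the deposited TPM values come from that step, per the file headers, as do the deposited transcript length and effective length. Of 142552 transcripts, 141429 (99.2%) matched GENCODE M21 (GRCm38), and the 1123 others, holding at most 0.467% of a library's counts, were left out. Gene values are sums of these estimated counts over transcripts, rounded.

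The main test was edgeR 4.0.16 in R 4.3.3: quasi-likelihood, two-sided, TMM, filterByExpr, Benjamini-Hochberg adjustment over all genes, called at an adjusted p under 0.05. Fits held DIV7 alone (19822 genes, 2 residual degrees of freedom), all DIV18 libraries (20940 genes, 12) and DIV7 with NT (21072 genes, 4), for 17 contrasts. The p-values measure the spread between embryos' cultures. Shares were compared by exact permutation tests and transcript forms were only described. The edgeR script was tested on simulated counts.

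The members and lists were chosen with earlier results of these data known. Values are given for every member called in a comparison and for the leading member of each family. Other genes named are Smarcc2, Fos and called genes of the lists, of which 1 is not reported here. Grin2a, Grin2b, Cacng8, Grm7 and Cnih2 in the addback comparisons were named after their values were seen. Same-numbered libraries deviated together, across genes, for vector at rest and after KCl (correlation 0.119 to 0.429), S586E and vector (0.284 to 0.405) and WT and vector after KCl (0.273 to 0.487). A replicate block changed no call of a member there. It did change calls in other comparisons, each with 2 numbered pairs that also deviated together. These were DIV7 KCl against rest (correlation 0.321), vector against NT at rest (0.24), WT against vector at rest (0.3) and S586E against WT (0.311).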

Additional observations from a re-analysis of the deposited data

How the results depend on the processing

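With only 2 or 3 libraries a group, counts of called members moved with the settings. The share of all genes called under each alternative is not given here, so these counts have no background beside them. In the DIV7 response to KCl (6 called), a replicate block gave 13 and leaving out single libraries gave 1 to 3. Between knockout with vector and NT at rest (7 called), 11 were called with no low-count filter, 10 with a replicate block, 3 with effective-length offsets, 1 with only the groups compared and 1 to 8 without single libraries. After KCl (2 called) no filter gave 4 and leaving out single libraries 0 to 2. Among comparisons with no called member, no low-count filter gave 1 for vector KCl against rest, 4 for WT against vector at rest, 7 for S586E against WT, 3 for the response of vector minus NT and 3 for the response of NT minus DIV7. A replicate block gave 1 for WT against vector at rest and 2 for S586E against WT, DESeq2 gave 3 and 5, only the groups compared gave 1 for S586E against WT, and leaving out libraries gave 0 to 1 for the response of NT minus DIV7. In these comparisons the libraries share only a number, and the block changed no other count by over 1.5 times. In NT, same-numbered libraries deviated in opposite ways (correlation -0.269), and crossing the numbers after seeing the data gave 0 calls, as in the main fit. Between the days, the share of Gria2 at rest (-19.56 percentage points) was -9.84 with protein-coding transcripts only, -19.34 with annotated lengths and -18.15 with no length correction. Other shares at rest became 12.24 and 12.34 for Grin2a (protein-coding transcripts only and annotated lengths), -9.09 for Grik2 and 13.93 for Neto1 (protein-coding transcripts only) and -15.38 for Grm5 (no length correction). The direction turned in 2 shares near 0: the Gria2 share in the DIV7 response was 0.07 with protein-coding transcripts only, and the Grin2a share between knockout and NT after KCl was -0.13 with no length correction. The cause was not tested. Mean TPM in place of TMM-scaled counts, a scale added after seeing the data and not tested, turned the direction of 11 members called higher between the days at rest: -0.97 for Gria4, -0.414 for Grin1, -0.274 for Grin2b, -0.539 for Grik5, -0.717 for Grid1, -0.269 for Grm4, -0.424 for Cacng2, -0.979 for Cacng3, -0.366 for Cacng7, -0.729 for Cacng8 and -0.099 for Neto1 (log2). After KCl it turned 15: -0.878 for Gria1, -0.036 for Gria3, -1.003 for Gria4, -0.486 for Grin1, -0.044 for Grin2b, -0.526 for Grin2c, -0.575 for Grik5, -0.598 for Grid1, -0.238 for Grm4, -1.122 for Grm7, -0.368 for Cacng2, -0.82 for Cacng3, -0.545 for Cacng7, -0.615 for Cacng8 and -0.52 for Neto1. All lie above the median of all genes on that scale. It turned no member called between knockout and NT. Estimated counts in place of TPM, chosen after seeing the data, kept the direction of the Grin1 C2 share between knockout and NT in both states. Median-of-ratios size factors changed no count by over 1.5 times. Members under 1 CPM, Grin3b in particular, and forms of Gria3 and Gria4 are limited by depth.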

Other observations

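Across the 33 members, the gene's genomic span and the log2 difference of knockout with vector from NT at rest had a Spearman rho of 0.41, against 0.19 after KCl. For WT against vector, which shares the vector libraries, rho was -0.42 at rest and -0.23 after KCl. Values of this size also arose elsewhere: -0.48 for S586A against WT and -0.48 for S586A against vector. The KCl response had 0.36 for WT minus vector and 0.34 for NT minus DIV7. The remaining contrasts lay between -0.33 and 0.21, and no rho over all genes is given. These are correlations across genes of the same libraries, with no test. The 3 longest members at 921.6 kb (Grm7), 860.1 kb (Grm8) and 763.3 kb (Grid1) differed by 0.56, 0.69 and -0.05 at rest, and only Grm7 passed.

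Transcripts not annotated as protein-coding held 6.95 to 7.73% of the members' estimated counts in the 4 DIV7 libraries and 2.93 to 6.27% in the 20 DIV18 libraries.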
